A study of Mus musculus with 6 samples.

Results

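Small nucleolar RNAs (snoRNAs) that carry only a predicted-gene name were abundant in the small RNA of thymic regulatory T (Treg) cells, where they took 10.1% to 11.5% of a library's gene counts. The mouse annotation gives symbols of the form Gm and a number to gene models that have not been named after a known gene, and 1342 of its 1507 snoRNA genes have such a symbol. The members described here are the 52 of these 1342 genes that had at least 10 raw counts in at least 3 of 6 libraries. They were thus selected on their counts, so their levels are given as a description. The rule did not use the genotype, but a gene with enough counts in the 3 libraries of 1 genotype alone could meet it. Of the other 1290 genes, 1215 had no count in any library and 75 had some counts without reaching the rule.

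The libraries came from Treg cells sorted from the thymi of 7-week-old mice of the strain given as C5BL6/N. They comprise 3 wild-type (WT) samples and 3 samples of the genotype miR-181a1/b1 -/-, miR-181a/b-1-/- in the study and KO below, which lacks the gene pair for miR-181a-1 and miR-181b-1, miRNAs known to tune T-cell receptor signalling. By the study's methods, thymi were pooled before sorting, so a value averages over animals, and the mutation is not confined to Treg cells. The library kit adds a tail to small RNA and then uses template switching for the cDNA. The values are the authors' deposited counts per gene.

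Most snoRNAs of mammals are cut from introns of spliced transcripts, and each works as the guide of a small protein complex in the nucleolus. Box C/D snoRNAs are short, hold box C near their 5′ end and box D near their 3′ end, and guide ribose methylation of ribosomal and spliceosomal RNA. Box H/ACA snoRNAs are longer, fold into a pair of hairpins joined by the H box, end in ACA, and guide conversion of uridine to pseudouridine. Genes of the former class are named Snord in the mouse and genes of the latter Snora.

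Gene counts ranged from 168293 to 307840 per library, and 75.7% to 80.3% of a library's records were given to no gene. Records without a unique alignment made up 41.7% to 46.2% and records over more than 1 gene 20.4% to 24.0%. The library with the most counts was KO replicate 3 and that with the fewest was replicate 1 of the same genotype. Mir181a-1 had 1 count in 1 WT library and Mir181b-1 had none, so these files do not check the genotype. Of 6 Treg marker genes all had counts, with sums of 220 to 241 in WT and 170 to 272 in KO libraries, and Ctla4 had 1 count in all. Of 7 general T-cell markers all had counts (sums of 245 to 293 and 184 to 289). Markers of other cells were at or near 0: the sums per library were at most 5 for 6 double-positive thymocyte markers (Rag2 among those at 0), at most 2 for 4 B-cell markers (Cd79a and Ms4a1 among those at 0), at most 1 for 4 myeloid markers (Lyz2, Csf1r and Adgre1 at 0), at most 1 for 4 thymic epithelial markers (Krt5, Krt8 and Foxn1 at 0), and 0 for 5 erythroid markers. In such bulk samples, fewer cells of a type and less RNA per cell cannot be told apart.

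The sequences of the members show both classes. The 6 box C/D members below comprise the most abundant of all (Gm23344), further members among the 7 highest, and both members with an unadjusted p under 0.05 and a lower level in KO cells (Gm25128 and Gm22888). They were taken from the GENCODE vM21 transcripts of GRCm38 and are written 5′ to 3′ as DNA. Capitals mark a match to box C (NTGATGA, with 1 mismatch allowed) and to box D (CTGA). In Gm23969, the marked CAGATGA overlaps ATGATGT, which also matches box C with 1 mismatch. The search does not tell which of these is its box C. Gm23344 lies at chr9:64175048-64175115 on the + strand, Gm23969 at chr2:26911261-26911334 on the + strand, Gm25128 at chr17:35247175-35247250 on the + strand, Gm25835 at chr11:69668852-69668995 on the - strand, Gm24494 at chr3:153911610-153911690 on the - strand and Gm22888 at chr4:41203057-41203133 on the - strand.
Gm23344: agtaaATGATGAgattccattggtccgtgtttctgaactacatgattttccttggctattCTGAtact
Gm23969: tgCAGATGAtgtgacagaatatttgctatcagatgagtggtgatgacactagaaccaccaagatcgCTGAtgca
Gm25128: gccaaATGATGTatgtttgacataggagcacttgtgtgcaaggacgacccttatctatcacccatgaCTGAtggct
Gm25835: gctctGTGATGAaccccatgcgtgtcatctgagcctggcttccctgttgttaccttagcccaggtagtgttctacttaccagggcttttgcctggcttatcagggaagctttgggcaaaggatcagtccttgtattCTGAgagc
Gm24494: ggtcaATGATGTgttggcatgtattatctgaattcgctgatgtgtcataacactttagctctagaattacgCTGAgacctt
Gm22888: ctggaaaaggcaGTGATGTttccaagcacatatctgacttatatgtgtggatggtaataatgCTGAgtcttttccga

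The H/ACA members with the 2 highest log2 fold changes, Gm22247 (chr4:46495155-46495285, + strand) and Gm24119 (chr10:91118291-91118536, - strand), are shown with the first match to the H box (ANANNA) in the middle part of the gene and the last ACA in capitals.
Gm22247: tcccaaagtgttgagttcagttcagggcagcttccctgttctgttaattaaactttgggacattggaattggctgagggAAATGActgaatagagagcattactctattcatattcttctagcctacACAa
Gm24119: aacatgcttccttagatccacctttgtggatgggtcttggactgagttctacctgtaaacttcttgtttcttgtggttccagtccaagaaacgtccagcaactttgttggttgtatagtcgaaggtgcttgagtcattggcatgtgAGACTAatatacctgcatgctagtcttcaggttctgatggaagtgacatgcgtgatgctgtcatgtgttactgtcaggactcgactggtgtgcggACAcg

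The members divide by length into 16 genes of up to 100 bases (65 to 99) and 36 longer ones (109 to 246). With box C NTGATGA in the first 25 bases and box D CTGA in the last 20, or an H box ANANNA in the middle part of the gene and ACA in the last 6 bases, 12 members held the C/D boxes, 31 the H/ACA boxes and 9 neither pair. The search was made on the RNA's own strand, and neither motif is rare: the H/ACA pair alone was found in 39.3% and the C/D pair alone in 16.7% of the other 1290 Gm snoRNAs. With 1 mismatch in box C and windows wider by 5 bases, 19 members (36.5%) held the C/D boxes and 31 (59.6%) the H/ACA boxes, which left Gm22362 and Gm24336 with neither (3.85%). The corresponding shares of the other Gm snoRNAs were 20.3% and 40.3%, with 38.8% holding neither pair and 0.62% both. By this wider search, all 16 short members were of the C/D kind. The long C/D members were Gm25835, Gm23734 and Gm22486. The named snoRNAs that met the same count rule, 38 Snord and 13 Snora genes, held only the boxes of their own class in 92.1% and 92.3% of genes by the wider search. A further 2.63% of the Snord genes (1 gene) held both pairs.

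All 52 members lay inside an intron of a gene on the same strand, whereas 329 of the other 1290 Gm snoRNAs did (25.5%). Among these it was 35 of the 75 that had some counts (46.7%) and 294 of the 1215 that were at 0 (24.2%). Among the named genes that met the rule the count was 35 of 38 for Snord and 11 of 13 for Snora. The host was a protein-coding gene for 50 members. The exceptions were Gm23639, in the long noncoding RNA Epb41l4aos, and Gm23245, in Cct6a, which the annotation gives as a processed transcript. No member lay wholly under an exon of another gene and 3 lay partly under one, while 89 of the other Gm snoRNAs, 37 of 98 Snord genes and 20 of 42 Snora genes lay wholly under such an exon, and none of those met the count rule. A record that falls on an exon of a second gene is ambiguous and is given to no gene by the counting program, so such snoRNAs cannot be read from these files.

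The members took 10.7%, 11.0% and 10.3% of the gene counts in WT and 10.1%, 10.3% and 11.5% in KO libraries, each in the order of replicates 1, 2 and 3, as everywhere below. The KO range thus covered the WT range, with means of 10.6% ± 0.380 (SD, n = 3) for WT and 10.6% ± 0.735 (SD, n = 3) for KO. Of the counts on all snoRNA genes, which were 41.9% to 45.8% of gene counts, the members held 24.2% ± 0.507 in WT and 24.5% ± 0.477 in KO (SD, n = 3 each). The counts were concentrated on few genes. Gm23344 alone held 18.7% of the members' counts, the highest 4 members 45.1% and the highest 10 members 71.9%, of which 8 were genes of up to 100 bases. Mean levels ran from 41.9 to 22540 TMM-normalized CPM (counts scaled to an effective library of 1000000) with a median of 666. These levels have the total on the tested genes as their denominator, scaled by edgeR's TMM factors. Per 100 bases of gene, the median level was 2819 CPM for the short members and 326 for the long ones, with ranges of 113 to 33148 and 31.5 to 7352 that overlapped.

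**Figure D1:**
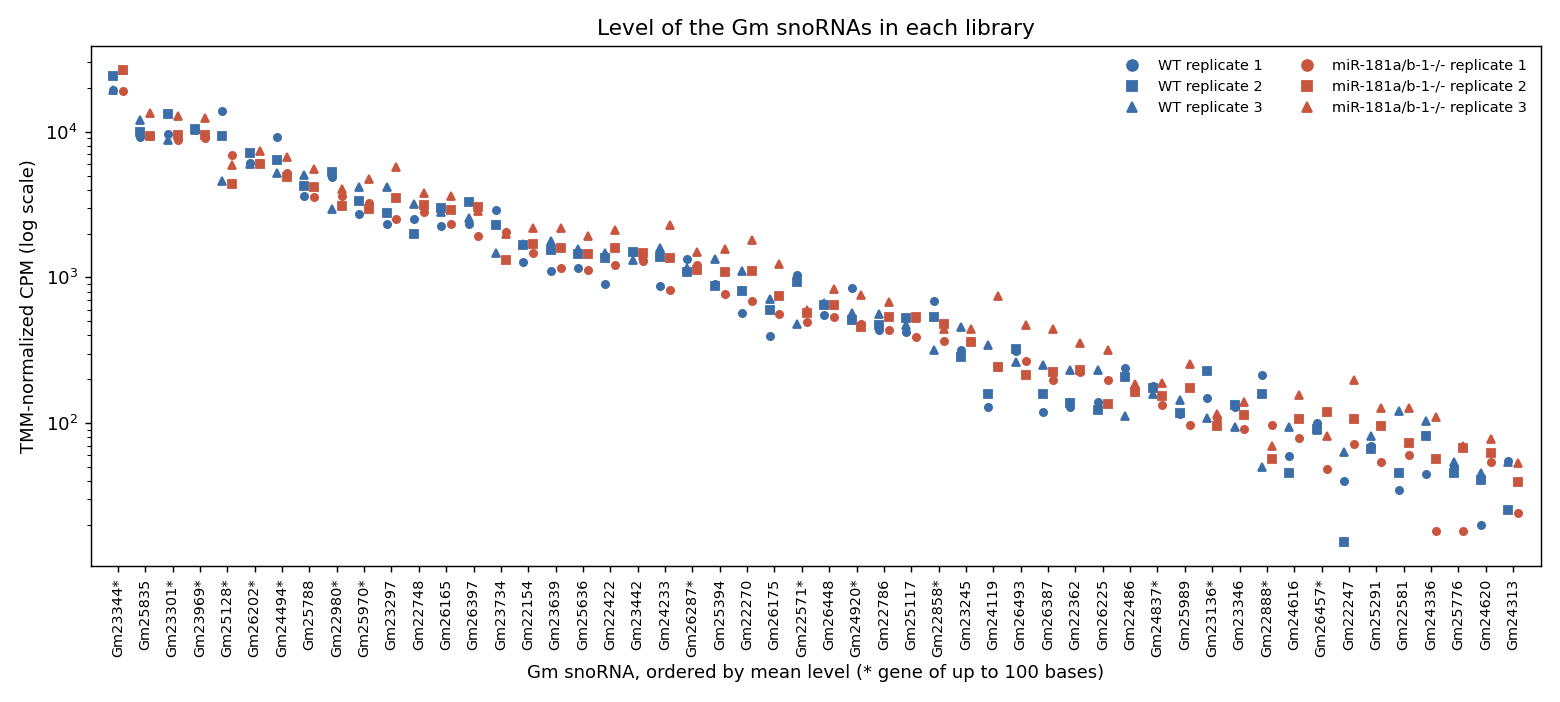
TMM-normalized CPM (log axis) of each of the 52 Gm snoRNAs in the 3 WT (blue) and 3 miR-181a/b-1-/- (KO, red) libraries, ordered by mean level, with replicate numbers as symbols and genes of up to 100 bases starred. Mean levels fall from 22540 for Gm23344 to 41.9 for Gm24313, and the points of the genotypes interleave for 50 of the 52 genes.

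Members in introns of ribosomal protein genes carried 47.1% of the members' counts, from 10 genes in 6 hosts. Gm23344 lies in an intron of Rpl4, which encodes a protein of the large ribosomal subunit. It had 3873, 4758 and 4313 counts in WT and 3185, 4681 and 6521 in KO libraries, and ranked first both by counts and per length. The same host held Gm22571 (208, 183 and 106 counts in WT, 82, 101 and 145 in KO) and Gm23136 (30, 45 and 24, then 18, 17 and 28). The 3 snoRNAs of Rpl4 thus differed more than 100-fold in level within 1 host, with means of 22540, 684 and 134 CPM, or 33148, 977 and 136 per 100 bases. Gm23301 and Gm26202, both in Rpl17, had 1927, 2619 and 1937 and 1221, 1412 and 1335 counts in WT, and 1454, 1677 and 3105 and 1018, 1073 and 1792 in KO libraries. Both are 65 bases long and 83.1% identical to each other, and Gm23301 is 84.8% identical to the named gene Snord58b. Gm23969, in Rpl7a, had 2101, 2056 and 2275 counts in WT, the tightest of the abundant members (10387 ± 117, SD, n = 3, in CPM), and 1497, 1685 and 3047 in KO libraries. The ribosomal protein hosts also included Rpl5, with Gm22270 and Gm26387, and Rpsa, with Gm26448.

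The other abundant members sat in genes for translation factors, RNA-binding proteins and a few enzymes. Gm25835, in the translation initiation helicase gene Eif4a1, had 1843, 1969 and 2673 counts in WT and 1552, 1669 and 3297 in KO libraries, and at 144 bases was the most abundant long member. Gm25128, in the RNA helicase gene Ddx39b, had 2786, 1846 and 1026 counts in WT and 1141, 777 and 1439 in KO libraries, the widest spread in WT of the 10 most abundant members. Gm24494 lies in Rabggtb, whose product helps attach lipid to Rab proteins. It had 1851, 1258 and 1155 and then 863, 871 and 1631 counts and is 80.2% identical to Snord45c, a snoRNA of the same host. Gm25788, in the poly(A)-binding protein gene Pabpc4, had 726, 838 and 1119 and then 589, 745 and 1360 counts. It was the most abundant member with H/ACA boxes. Gm25970, in the splicing factor gene Prpf39, had 547, 662 and 926 and then 541, 520 and 1162 counts. In all 10, the range of the KO libraries overlapped that of WT after normalization.

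Among the most abundant members of groups that share a closest named snoRNA, the resemblance ran from near identity to little more than a common length. Gm23346, in Eif2ak3, is 98.5% identical to Snora5c, and had 26, 26 and 21 counts in WT and 15, 20 and 34 in KO libraries. Gm26165, in the sorting nexin gene Snx5, is 90.6% identical to Snora70 and had 456, 587 and 629 and then 385, 516 and 884 counts. Gm24233, in Mia2, is 89.3% identical to Snora26 and had 176, 270 and 353 and then 136, 241 and 557 counts. Gm23734, in the glycosyltransferase gene Mgat5, is 88.2% identical to Snord8 and had 587, 454 and 325 and then 338, 234 and 485 counts. Gm26175 is 80.3% identical to Snora36b. For Gm23297 (in Nap1l4, 465 to 922 counts in WT and 417 to 1407 in KO), Gm22748 (in Odc1, 392 to 705 and 468 to 919), Gm22154 (in Pabpc4, 255 to 379 and 243 to 536), Gm23639 (222 to 393 and 191 to 535), Gm25394 (in Iars, 171 to 295 and 127 to 385) and Gm23245 (56 to 102 and 61 to 108) the closest named snoRNA was under 70% identical. In all, 18 of the 52 members were at least 70% identical to a named snoRNA gene, against 676 of the other 1290 Gm snoRNAs. Only 6 of the 18 had that named gene in the same host as themselves.

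For 21 members, another annotated snoRNA gene was at least 90% identical, and a read that fits several copies has no unique alignment and was given to no gene. The counts of these members are therefore of reads that cover a distinguishing base, or fit 1 copy best. The 3 sets below are shown as examples in which a member had an unadjusted p under 0.05. Gm24616, which also had one, is not shown and has 1 copy, Gm25588, at 92.9% identity. Capitals mark the bases that differ from the first gene of a set, after an alignment that allowed gaps, and in the first gene those that differ from, or are missing in, either copy. Gm22247 differs by 9 changes (substituted, added or missing bases) from Gm26175 (chr6:97162817-97162947, - strand) and by 8 from Gm25635 (chr10:9852019-9852149, - strand), and its longest stretch shared exactly with another snoRNA gene is 63 of its 131 bases.
Gm22247: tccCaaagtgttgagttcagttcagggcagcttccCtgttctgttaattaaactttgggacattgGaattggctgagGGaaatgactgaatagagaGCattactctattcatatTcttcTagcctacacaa
Gm26175: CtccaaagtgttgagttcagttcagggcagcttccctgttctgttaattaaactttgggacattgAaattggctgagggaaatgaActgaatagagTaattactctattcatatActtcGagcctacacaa
Gm25635: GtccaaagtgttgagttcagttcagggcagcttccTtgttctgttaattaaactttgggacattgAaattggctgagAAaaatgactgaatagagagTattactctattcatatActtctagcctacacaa
Gm25788 (chr4:123291344-123291474, + strand) and Gm22154 (chr4:123293152-123293282, + strand) lie in separate introns of Pabpc4 and differ by 4 bases, and Gm24620, in Kif13a (chr13:46767520-46767649, - strand), differs from Gm25788 by 3.
Gm25788: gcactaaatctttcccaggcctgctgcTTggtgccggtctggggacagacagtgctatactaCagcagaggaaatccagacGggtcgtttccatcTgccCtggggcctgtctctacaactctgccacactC
Gm22154: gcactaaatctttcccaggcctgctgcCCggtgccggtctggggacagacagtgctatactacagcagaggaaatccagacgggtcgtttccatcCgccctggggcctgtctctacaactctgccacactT
Gm24620: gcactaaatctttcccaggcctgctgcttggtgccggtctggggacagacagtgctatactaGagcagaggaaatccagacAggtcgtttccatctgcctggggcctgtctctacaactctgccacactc
Gm22270 (chr5:107905177-107905308, + strand) and Gm26387 (chr5:107907345-107907476, + strand) both lie in Rpl5 and differ by 7 bases.
Gm22270: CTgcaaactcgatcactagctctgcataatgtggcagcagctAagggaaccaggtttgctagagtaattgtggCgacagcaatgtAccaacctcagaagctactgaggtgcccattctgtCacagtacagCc
Gm26387: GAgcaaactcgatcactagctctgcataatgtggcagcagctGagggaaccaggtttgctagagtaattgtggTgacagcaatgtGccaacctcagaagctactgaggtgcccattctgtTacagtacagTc

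The count rule falls within a run of low values. Just inside it were Gm24620 (4, 8 and 10 counts in WT, 9, 11 and 19 in KO), Gm24313 (11, 5 and 12, then 4, 7 and 13) and Gm25776 (10, 9 and 12, then 3, 12 and 17). Just outside were Gm25635 (7, 9 and 16, then 4, 7 and 33), Gm23946 (5, 9 and 12, then 5, 6 and 15) and Gm22806 (4, 6 and 15, then 1, 8 and 20). A total of 43 members had at least 10 counts in all 6 libraries, 3 in 5, 4 in 4 and 2 in 3. No member reached 10 counts in all 3 libraries of 1 genotype and in no library of the other. Gm26457 shares its symbol with a second annotated snoRNA gene that lies inside it, to which no count was given, and 44.9% of Gm26457 is under that gene's exon.

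The comparison of KO with WT Treg cells asked whether loss of the miRNAs was accompanied by a change in these snoRNAs. None of the 52 members reached 0.05 after Benjamini-Hochberg adjustment over the 1391 genes tested (edgeR, quasi-likelihood), and 0% of those genes did in either direction. DESeq2 on the same genes also called 0 members, with 1 lower and 2 higher at an unadjusted p under 0.05. In edgeR, at an unadjusted p under 0.05, 2 members had lower and 6 had higher levels in KO libraries, where 2.66% of all genes tested were lower and 2.52% higher. The 6 include Gm22247 and Gm24620, which met the count rule mainly through KO libraries, so the 6 are not read against that share. With at least 10 counts in every library, 3 of 43 members were lower and 4 higher. The shares of all genes are those of the first edgeR fit only. Member counts from DESeq2, from this filter and from other scalings are therefore not read against them. The median log2 fold change of the members was 0.11, with 19 negative and 33 positive values, and that of all genes tested was -0.0040. With TMM factors taken over snoRNA genes alone, which moved the median of all genes to -0.10, the members' median was -0.02 (28 negative, 24 positive) and the split at an unadjusted p under 0.05 was 4 lower and 2 higher. Without KO replicate 3 the median was -0.11 (36 negative, 16 positive), and with the other libraries left out in turn it ranged from 0.02 (without WT replicate 1) to 0.19 (without KO replicate 1).

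Gm22247 had the smallest p of all genes tested. It lies in an intron of Nans, which encodes a sialic acid synthase, and had 8, 3 and 14 counts in WT and 12, 19 and 48 in KO libraries. Normalized levels were 39.4 ± 23.9 (SD, n = 3) and 125 ± 64.3 (SD, n = 3) CPM, and the groups did not overlap. The log2 fold change was 1.68 (standard error 0.42, unadjusted p = 0.000507, adjusted p = 0.311, edgeR), and the exact permutation test gave 0.1, the smallest p that 3 against 3 libraries allow. The adjusted p was 0.00813 without KO replicate 1 and 0.0305 without KO replicate 2, 0.0251 without the count filter, and ranged up to 0.999 (without WT replicate 1) over the alternatives. The log2 fold change was 1.65 without WT replicate 1. Over the alternatives it ranged from 1.16 (without KO replicate 3) to 2.21 (without WT replicate 3). Its copy Gm26175, in the Golgi protein gene Tmf1, had 79, 118 and 158 counts in WT and 93, 132 and 301 in KO libraries, or 0.58 on the log2 scale (standard error 0.30, adjusted p = 0.974), and its groups overlapped. Without KO replicate 3 the value of this copy was 0.21. The host gene Nans had 10 counts in all libraries. Gm22247 met the rule of 10 counts in 3 libraries with all 3 KO libraries and only 1 WT library, so it was tested through the group in which it is high, and its p and the separation of its groups are not independent of that choice.

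Gm24620 was the other member whose groups did not overlap, at 35.2 ± 13.4 (SD, n = 3) CPM in WT and 64.7 ± 12.1 (SD, n = 3) in KO libraries. It is a low-count gene in the kinesin gene Kif13a, at the edge of the selection, and met the count rule with 2 KO libraries and 1 WT library, so the same limit holds for it. The difference was 0.88 on the log2 scale (standard error 0.42, adjusted p = 0.929, edgeR), and 0.59 without WT replicate 1. Among all genes tested, 3.24% had all KO values above all WT values and 4.82% had them all below. The corresponding member counts were 2 and 0 of 52. The nearly identical Gm25788 and Gm22154, both far more abundant, had log2 fold changes of 0.05 (standard error 0.24) and 0.21 (standard error 0.25), the former with a sign that depended on the setting and the latter at 0.03 without KO replicate 3.

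The other 4 members with an unadjusted p under 0.05 and a positive value were also longer genes. In all 4, as in Gm22247 and Gm24620, replicate 3 of each genotype was the highest of its group. Gm24119, in the mitochondrial phosphate carrier gene Slc25a3, is the longest member at 246 bases. It had 26, 31 and 76 counts in WT and 40, 43 and 182 in KO libraries. The difference of 0.98 on the log2 scale (standard error 0.39, adjusted p = 0.896) was 0.20 without KO replicate 3. Gm24616, in the translation initiation helicase gene Eif4a2, had 12, 9 and 21 and then 13, 19 and 38 counts (0.78 on the log2 scale, standard error 0.35, adjusted p = 0.896). Gm26387 had 24, 31 and 56 and then 33, 40 and 108 counts (0.73, standard error 0.33, adjusted p = 0.897), and 0.27 without that same library, while its copy Gm22270 in Rpl5 had 115, 158 and 244 and then 114, 195 and 437 counts (0.54, standard error 0.31, adjusted p = 0.979, and 0.12 without KO replicate 3). Gm22362, in the gene of the cold-shock protein Ybx3 and with neither pair of boxes, had 26, 27 and 51 and then 37, 41 and 86 counts (0.71, standard error 0.30, adjusted p = 0.896). The groups of these 4 genes overlapped after normalization, with WT replicate 3 inside the range of the KO libraries. Between libraries of the same number, KO was above WT each time in all 4. The labels do not say that a number marks a pair, and these genes were picked by their p and positive sign. Without that WT library, the values were between 1.02 and 1.54, and without KO replicate 3 they were between 0.20 and 0.47, with 0.47 for Gm24616 and 0.45 for Gm22362.

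The 2 members with lower levels were short C/D genes. Gm25128 had 9292 ± 4624 (SD, n = 3) CPM in WT and 5721 ± 1260 (SD, n = 3) in KO, which is -0.70 on the log2 scale (standard error 0.29, adjusted p = 0.896). WT replicate 1 was the highest library and WT replicate 3 lay within the range of KO libraries. Without WT replicate 1 the value was -0.31, and without WT replicate 3 it was -1.02. Gm22888, in Ubap2, had 43, 31 and 11 counts in WT and 16, 10 and 17 in KO libraries (-0.91, standard error 0.40, adjusted p = 0.896), and -0.49 without WT replicate 1. WT replicate 3 was again the lowest WT library, here below all 3 KO libraries in CPM (49.6 against 56.4 to 96.5). The next lowest values were those of Gm23136 (-0.59, standard error 0.32, adjusted p = 0.974), Gm22571 (-0.55, standard error 0.28, adjusted p = 0.974) and Gm23734 (-0.32, standard error 0.27, adjusted p = 0.980), and the sign of all 5 was kept in each alternative run. With a library left out, the value nearest to 0 was -0.26 for Gm23136 (without WT replicate 2), -0.37 for Gm22571 and -0.10 for Gm23734 (both without WT replicate 1).

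**Figure D2:**
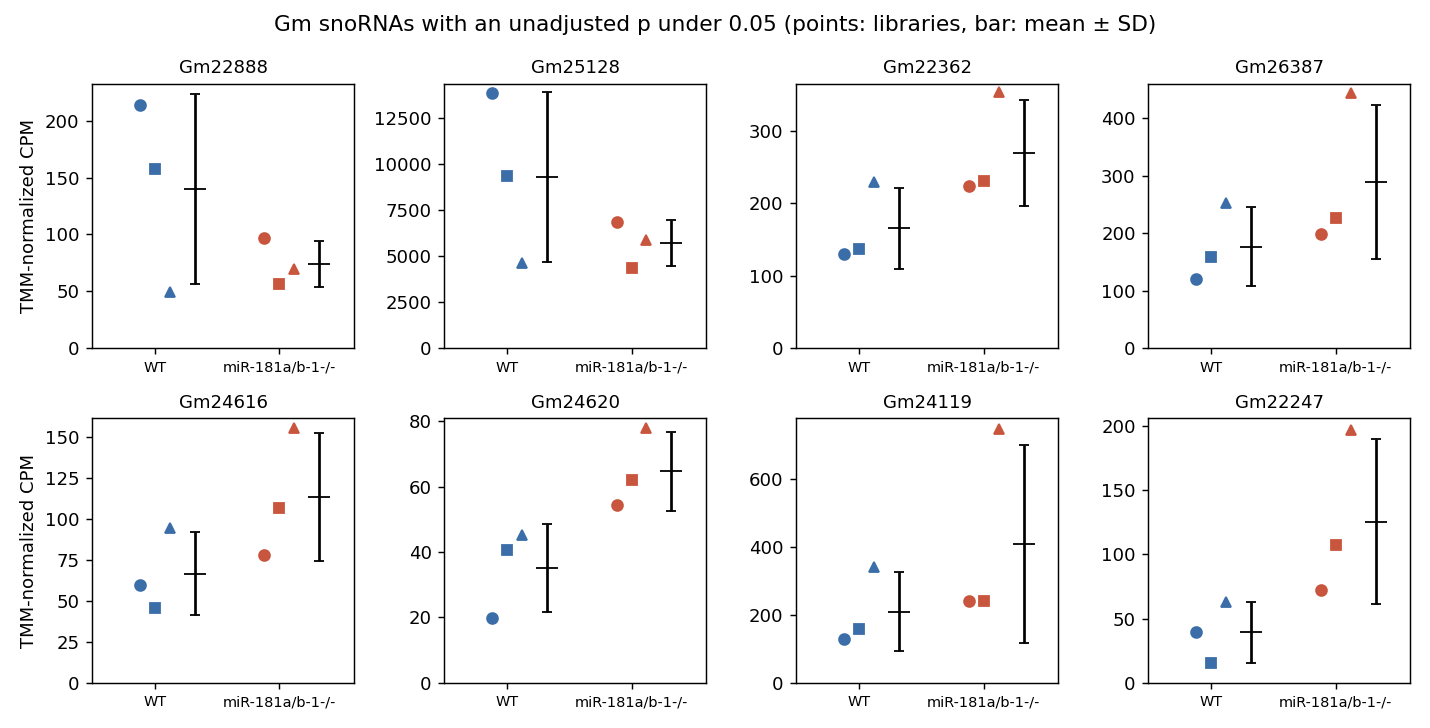
TMM-normalized CPM (linear axes from 0) of the 8 Gm snoRNAs with an unadjusted p under 0.05, for 3 WT (blue) and 3 miR-181a/b-1-/- (KO, red) libraries, with circles, squares and triangles for replicates 1, 2 and 3 and a bar for mean ± SD. The groups are separate for Gm22247 and Gm24620, and for the other 6 genes WT replicate 3 reaches the KO range or, in Gm22888, lies below it.

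The other 9 of the 10 most abundant members had smaller differences than Gm25128. Gm23344 had 20966 ± 2784 (SD, n = 3) CPM in WT and 24115 ± 4254 (SD, n = 3) in KO, or 0.20 on the log2 scale (standard error 0.21). The values were 0.05 for Gm25835, -0.03 for Gm23301, -0.01 for Gm23969, 0.02 for Gm26202, 0.05 for Gm25788 and 0.10 for Gm25970, with standard errors of 0.21 to 0.25, and the sign of each of these 6 changed in at least 2 of the alternatives. Gm24494 and Gm22980 had -0.31 and -0.29 with standard errors of 0.24 and 0.25, but the former was -0.07 without WT replicate 1 and the latter -0.13 without WT replicate 2. The value of Gm23344 ranged from 0.10 to 0.33 with a library left out. None of the 9 had an unadjusted p under 0.05.

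By length, the 2 classes had medians of opposite sign. The 16 members of up to 100 bases had a median log2 fold change of -0.17, with 12 negative and 4 positive values. The split was 8 and 8 without KO replicate 1, and 15 and 1 both without KO replicate 3 and with TMM over snoRNA genes. The 36 longer members had a median of 0.17, with 7 negative and 29 positive values. Their split was 2 and 34 without KO replicate 1, 21 and 15 without KO replicate 3, and 13 and 23 with TMM over snoRNA genes. By motif, the 19 C/D members had a median of -0.16 (14 negative, 5 positive). This split was 10 and 9 without KO replicate 1, and 18 and 1 both without KO replicate 3 and with TMM over snoRNA genes. The 31 H/ACA members had a median of 0.21 (4 negative, 27 positive). Theirs was 0 and 31 without KO replicate 1, 17 and 14 without KO replicate 3, and 9 and 22 with TMM over snoRNA genes. The median of the short members was negative in each alternative run, from -0.30 to -0.03. That of the long members was positive, from 0.04 to 0.35, except without KO replicate 3, when it was -0.03.

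**Figure D3:**
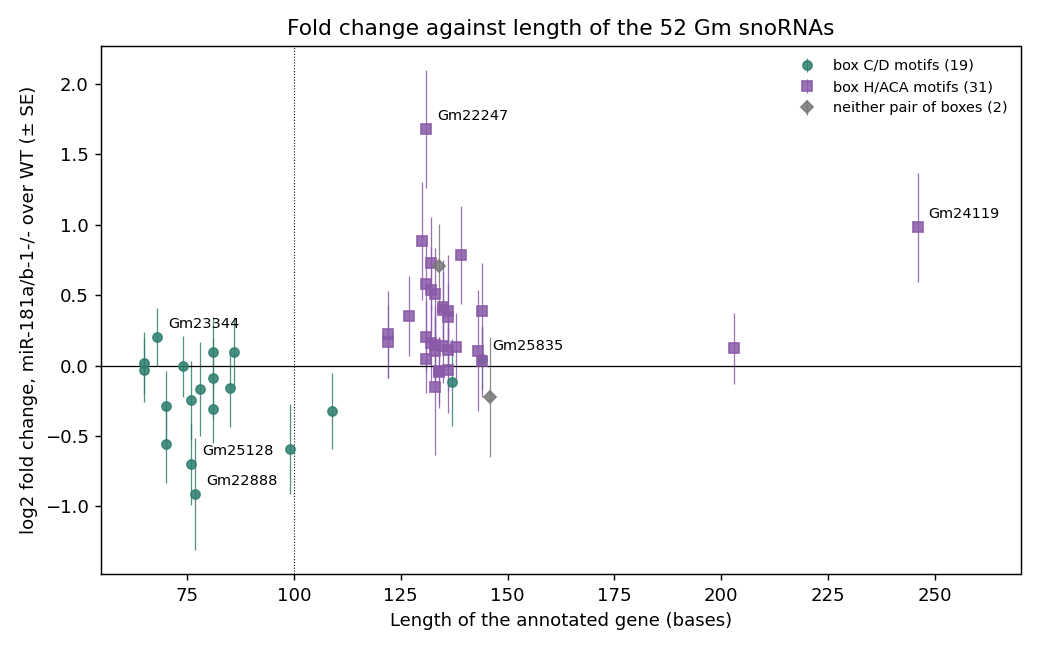
Log2 fold change of miR-181a/b-1-/- (KO) over WT (± standard error, 3 libraries each) of the 52 Gm snoRNAs against gene length in bases, with members holding C/D boxes in green, H/ACA boxes in purple and neither in grey. Of the 16 genes to the left of the dotted line at 100 bases, 12 lie below 0, and of the 36 to its right 29 lie above.

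The share of long genes among the members' counts also differed between replicates of 1 genotype. It was 31.6%, 33.7% and 42.9% in WT and 36.4%, 38.6% and 41.6% in KO libraries, with means of 36.1% ± 6.01 (SD, n = 3) and 38.9% ± 2.60 (SD, n = 3). The genotypes overlapped, and the lowest and the highest value were both WT. Relative to each gene's mean over the 6 libraries, the median log2 level of the long members was -0.31, -0.14 and 0.08 for WT and -0.29, 0.01 and 0.52 for KO. For the short members it was 0.16, 0.13 and -0.24 for WT and -0.24, -0.20 and 0.14 for KO, so that WT replicate 3 was low for short and high for long members. In 30 of 36 long members WT replicate 3 was above WT replicate 1, and in 14 of the 16 short ones it was not. Of all 1391 genes tested, 690 had WT replicate 3 above WT replicate 1. KO replicate 3 exceeded replicate 1 of that genotype in 35 of 36 long and in 14 of 16 short members, where 726 of 1391 genes did so. The part of library composition in the fold changes by length was not tested.

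**Figure D4:**
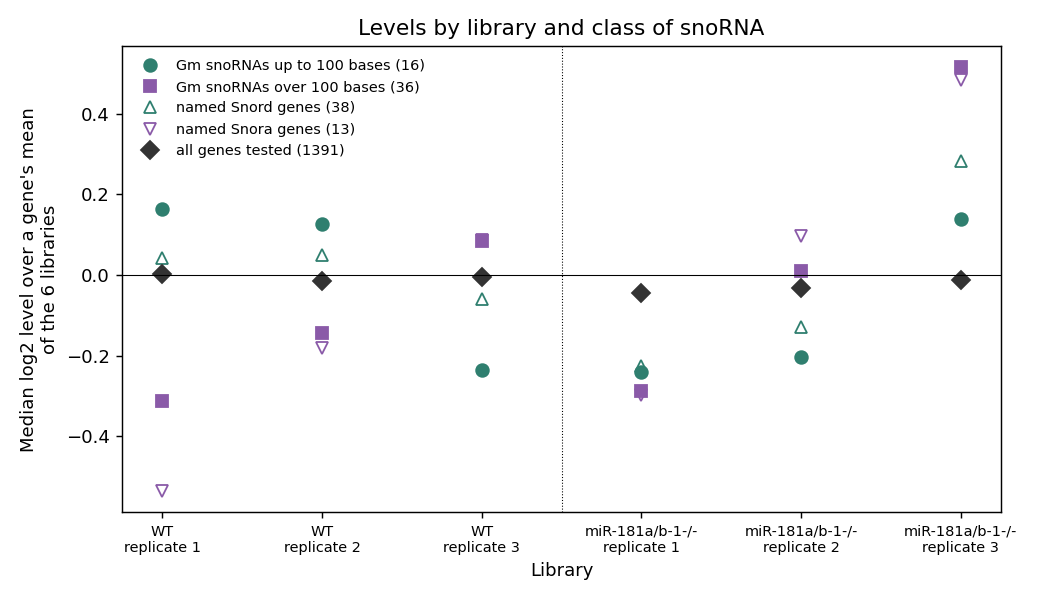
Median, over the genes of a list, of the log2 level relative to the gene's mean of all 6 libraries, for each library and for the 16 short and 36 long Gm snoRNAs, the 38 Snord and 13 Snora genes that met the count rule and all 1391 genes tested. Long members run from -0.31 in WT replicate 1 to 0.52 in KO replicate 3, while all genes stay within 0.05 of 0.

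Named snoRNAs that met the count rule were set beside the members. The 38 Snord genes had a median log2 fold change of 0.02 (17 negative, 21 positive, with 1 lower and 0 higher at an unadjusted p under 0.05), and the 13 Snora genes one of 0.29 (0 negative, 13 positive, 0 lower and 1 higher). With TMM over snoRNA genes the medians were -0.09 (25 negative, 13 positive) and 0.17 (0 negative, 13 positive), and without WT replicate 1 or without KO replicate 3 there were 2 negative Snora genes, with medians of 0.13 and 0.15. The Snora median was 0.49 without WT replicate 3 and 0.52 without KO replicate 1. Without KO replicate 3 the Snord median was -0.13 (32 negative, 6 positive). No gene of either list passed an adjusted p of 0.05. Spread between replicates was wider for the members than for Snord genes: the median coefficient of variation was 24.8% in WT and 23.2% in KO libraries for the members and 14.3% and 18.0% for Snord genes, beside 23.6% and 25.9% for all genes tested. For the Snora genes it was 24.6% and 26.1%. The 21 members with a copy at 90% identity or more had a median log2 fold change of 0.21 (3 negative, 18 positive), and the 31 without one a median of -0.01 (16 negative, 15 positive). Without KO replicate 3, the former had 11 negative and 10 positive values (median -0.0076) and the latter 25 negative and 6 positive (median -0.16), whereas without KO replicate 1 the latter had 9 negative and 22 positive (median 0.12). The members with a copy are mostly H/ACA genes. The 10 members in ribosomal protein genes had a median of 0.01 (5 negative, 5 positive) and the other 42 one of 0.11 (14 negative, 28 positive), but both medians were negative, at -0.11 and -0.11, without KO replicate 3.

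The host transcripts had few counts in these small RNA libraries. Over all 6 libraries, the totals of the 46 hosts ran from 1 count for Kif13a to 11897 for Rpl7a with a median of 29.5, and 18 hosts had enough counts to be tested. None of the 18 had an unadjusted p under 0.05, 9 values were negative and 9 positive, and their median log2 fold change was 0.0016. Rpl4, the host of Gm23344, had 87, 93 and 97 counts in WT and 50, 83 and 117 in KO libraries, far fewer than this snoRNA of its intron. Rpl7a had a count near that of its snoRNA, with 2360, 2782 and 1586 counts in WT and 1595, 1288 and 2286 in KO libraries against 2101, 2056 and 2275 and 1497, 1685 and 3047 for Gm23969.

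The genes of the snoRNA protein complexes were nearly out of reach. Of the 4 core box C/D protein genes (Fbl, the methyltransferase, with Nop56, Nop58 and Snu13) only Nop58 had enough counts to be tested, with 14, 13 and 15 counts in WT and 15, 11 and 13 in KO libraries (-0.01 on the log2 scale, standard error 0.34). It is itself the host of the member Gm26287 (268, 215 and 257, then 201, 199 and 365 counts). Of the 5 box H/ACA protein genes only Dkc1, the pseudouridine synthase, could be tested, with 11, 10 and 13 and then 17, 8 and 11 counts (0.18, standard error 0.39). The 6 assembly factor genes, among them Nufip1 and Shq1, summed to 8 to 14 counts in WT and 6 to 11 in KO libraries, and none was tested. Neither of the 2 tested genes, Nop58 and Dkc1, had an unadjusted p under 0.05.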

How the data were processed

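Small RNA of sorted thymic Treg cells was sequenced in 3 WT and 3 miR-181a/b-1-/- samples. The authors trimmed adapters with Flexbar, removed ribosomal RNA with Bowtie 2, aligned with STAR and deposited raw HTSeq counts per gene for each sample. The submitters' notes name the build GRCm38.p6. The annotation release and the strand setting of the counting are not given in the sources used here. The deposited table of the authors' own DESeq2 comparison of miRNAs was not used. Gene rows (54547) were matched to GENCODE vM21 by identifier without version (53706 matched). The 5 rows that name no gene, 75.7% to 80.3% of a library's records, stayed out of library sizes and tests.

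Groups follow the labels. Genes with at least 10 counts in at least 3 libraries (1391) were scaled by TMM and tested with edgeR 4.0.16 in R 4.3.3 (quasi-likelihood test, no block, Benjamini-Hochberg adjustment), with library sizes summed over these genes. Standard errors come from the fold change and its F statistic. The test was checked on simulated data. DESeq2 1.42.0, other filters and scalings, a replicate block and leaving out each library were alternatives. Permutation tests are exact and two-sided. The labels do not say that samples came from separate sorts, the study's methods call them biological replicates, and p-values measure only the spread between these 6 libraries.

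Identity is 1 minus the edit distance over the longer sequence, in percent. An intron host is a gene on the same strand. Named genes are the 10 with the highest mean, the 5 with the highest and the 5 with the lowest fold change, all with an unadjusted p under 0.05, the 3 that just meet and the 3 that just miss the count rule, and the most abundant of each group with the same closest named snoRNA. Others named, such as copies of these, were chosen after their values were seen. The members and lists were chosen with earlier results of these data known. Gene totals of 168293 to 307840 counts per library limit precision. The sources used here name no removal of PCR copies, so a molecule copied by PCR can be counted more than once. Some genes are not reported here.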

Additional observations from a re-analysis of the deposited data

How the results depend on the processing

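At an adjusted p under 0.05, 0 members were called lower in each alternative. The count of higher calls was 0 with DESeq2, with at least 10 counts in every library, without TMM factors, with TMM over snoRNA genes, and at an adjusted p under 0.1. The filter of 10 counts in every library left 43 members, without Gm22247. The count was 1 (Gm22247) without the count filter, and 0 to 1 when each library was left out. At an unadjusted p under 0.05, where 2 were lower and 6 higher, DESeq2 gave 1 lower and 2 higher, TMM over snoRNA genes 4 lower and 2 higher, and leaving out each library 0 to 5 lower and 1 to 10 higher. The shares of all genes at that p in these alternative fits are not given. These member counts are therefore not read as an excess or a lack. The members' median ranged from -0.11 to 0.19 with a library left out and from -0.02 to 0.12 otherwise. Members with C/D boxes numbered 19 with the wider motif search and 23 by the closest named snoRNA, against 12. The cause of these shifts was not tested.

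With the replicate number as a block, 2 members were lower and 9 higher at an unadjusted p under 0.05, and 0 were called at 0.05 after adjustment (Gm22247 and Gm24119 at 0.0788). The share of all genes at that unadjusted p in the blocked fit is not given, so the 9 are not read as an excess. The labels do not say that a number marks a shared sort. The deviations of same-numbered samples correlated at 0.231, 0.0812 and 0.182 over all genes tested, where pair 2 was under 0.1, and at 0.589, 0.111 and 0.736 over the members, where all 3 pairs were above it. Over all genes tested, each WT library correlated most with the KO library of its own number. Over the members WT replicates 1 and 3 did so, but WT replicate 2 correlated more with KO replicate 1, at 0.301. Deviations from a genotype's mean sum to 0 over its 3 libraries, so these correlations cannot settle whether the numbers mark pairs. No call at an adjusted p under 0.05 differed between the fits with and without the block.

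Of the 32 named members, 18 kept their sign in each alternative. Reversed values with DESeq2 were 0.0096 for Gm23969, and with TMM over snoRNA genes -0.062 for Gm25835, -0.072 for Gm26202, -0.067 for Gm25788, -0.016 for Gm25970 and -0.054 for Gm25776. With libraries left out, the ranges of members that changed sign were -0.027 to 0.63 for Gm23297, -0.20 to 0.17 for Gm23301, -0.21 to 0.093 for Gm23346, -0.099 to 0.35 for Gm23639, -0.16 to 0.073 for Gm23969, -0.23 to 0.50 for Gm24233, -0.48 to 0.057 for Gm24313, -0.16 to 0.37 for Gm25394, -0.19 to 0.45 for Gm25776, -0.14 to 0.18 for Gm25788, -0.14 to 0.17 for Gm25835, -0.14 to 0.26 for Gm25970, -0.037 to 0.27 for Gm26165 and -0.069 to 0.11 for Gm26202. Low counts limit members such as Gm24313, with 4 to 13 per library.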
